A study of Mus musculus with 4 samples.

Results

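The genes described here encode transcription factors and cofactors of muscle precursor cells: Pax3 and Pax7, Six4, Eya1 and Eya2, Tead1, Tead2 and Tead4, and the Tead cofactor Vgll2. They were taken as every non-control array probe that carries one of these 9 names in the scanner files, which gave 12 probes among 41174 probes with 27745 gene names. Of the 12 probes, 9 probes for 7 genes gave signal high enough to be tested. None of these 9 probes passed the threshold, and Tead4 came nearest to it, at 1.31-fold lower with GDF8.

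The samples were C2C12 cells, an immortalised mouse myoblast line derived from muscle satellite cells that fuses into myotubes when serum is lowered. Cells were grown in 10% fetal bovine serum, switched to horse serum and kept differentiating for 6 days, either with GDF8 (recombinant mouse myostatin, 20 nM, renewed every 24 h) or untreated. The labels give the horse serum as 2% in one place and 10% in another. Each of 4 two-colour Agilent whole mouse genome arrays compared 1 GDF8 RNA with 1 untreated RNA, with GDF8 in Cy3 on replicates 1 and 4 and in Cy5 on replicates 2 and 3. The labels call these biological replicates without saying whether the cultures were separate. The p-values therefore speak for these 4 pairs only, whose spread may be partly technical. All values come from whole cultures, in which fewer cells of a type and less RNA per cell cannot be told apart.

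Pax3 and Pax7 are paired-box homeodomain factors that mark embryonic muscle progenitors and adult satellite cells, and their expression normally falls as myoblasts differentiate. Six-family homeodomain proteins bind MEF3 elements in muscle promoters such as that of myogenin, and Eya proteins, which are also phosphatases, bind Six-family proteins and act as their coactivators. Tead factors bind MCAT elements through a shared domain but need a partner to activate transcription, either YAP and TAZ, which the Hippo kinases hold in the cytoplasm, or a Vestigial-like protein such as Vgll2. GDF8 signals through activin type II receptors and SMAD proteins and is known for limiting muscle growth and myoblast differentiation.

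The array files used here hold no probe sequences, so sequence is shown for promoters alone. RefSeq promoters on GRCm38.p6, from 250 bases before to 50 bases after an annotated start, were matched by symbol for 4 of the 9 genes: Pax7, Six4 (2 overlapping entries), Tead2 and Vgll2. They were searched on both strands for the E-box CANNTG (the general element of basic helix-loop-helix factors), MCAT CATTCC (Tead), MEF3 TCAGGTT (Six-family) and the SMAD box GTCTAGAC. The only matches were 1 E-box in Vgll2 and 1 MEF3 in a Six4 entry, and both sequences are printed because they hold the only matches. Capitals mark the match, and both read 5′ to 3′ on the gene's own strand.
Six4 (chr12:73113196-73113495, minus strand): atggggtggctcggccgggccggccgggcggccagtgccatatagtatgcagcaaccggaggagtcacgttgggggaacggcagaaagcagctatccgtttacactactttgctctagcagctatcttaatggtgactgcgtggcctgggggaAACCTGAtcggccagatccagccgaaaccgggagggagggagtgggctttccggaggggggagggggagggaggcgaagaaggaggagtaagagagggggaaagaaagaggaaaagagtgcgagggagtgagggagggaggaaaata
Vgll2 (chr10:52022252-52022551, plus strand): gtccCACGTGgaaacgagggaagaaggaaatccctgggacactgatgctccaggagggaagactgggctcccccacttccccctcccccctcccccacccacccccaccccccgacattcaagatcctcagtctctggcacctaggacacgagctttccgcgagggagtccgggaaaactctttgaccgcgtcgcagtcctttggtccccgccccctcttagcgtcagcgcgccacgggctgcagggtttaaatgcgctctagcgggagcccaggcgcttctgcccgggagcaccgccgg
The MEF3 match of Six4, a gene for a MEF3-binding protein, began at position -97 from the start and read AACCTGA, the reverse complement of the letters searched. The E-box of Vgll2 began at position -246 and read CACGTG, the letters known for Myc and USF factors rather than for MyoD. Among all 32851 promoters of this length in the table, 4.07% held the MEF3 letters, 72.3% an E-box, 14.7% the MCAT letters and 0.213% the SMAD box. The other Six4 entry and the Pax7 and Tead2 promoters held none of these letters in the window. A match is a description of the letters and does not show that the element is bound.

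Each ratio given here is on the log2 scale, GDF8 channel over untreated channel, and each estimate comes from limma with a term for the dye and has its standard error (SE) over 4 arrays. Limma's SE and p use the spread left after the dye term, drawn towards a common value for all tested probes. They are therefore not the plain spread of the 4 ratios of a probe. A probe was tested if it was well above background in all 4 GDF8 or all 4 untreated channels and had a value on every array, and Benjamini-Hochberg adjustment ran across the 26579 probes that met this. Levels are normalised log2 channel values and are compared within a probe only. Of all tested probes, 724 passed an adjusted p of 0.05 in limma, 205 higher and 519 lower, which is 2.72%. Among the 9 tested probes of these genes the count was 0, with 0 higher and 0 lower. At limma's unadjusted p, 1 of the 9 (Tead4) was under 0.05, beside 3232 of all 26579 tested probes (12.2%). The methods' t-test with Benjamini-Hochberg adjustment also called 0 of the 9. No probe under these 9 gene names was saturated in any channel.

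**Figure D1:**
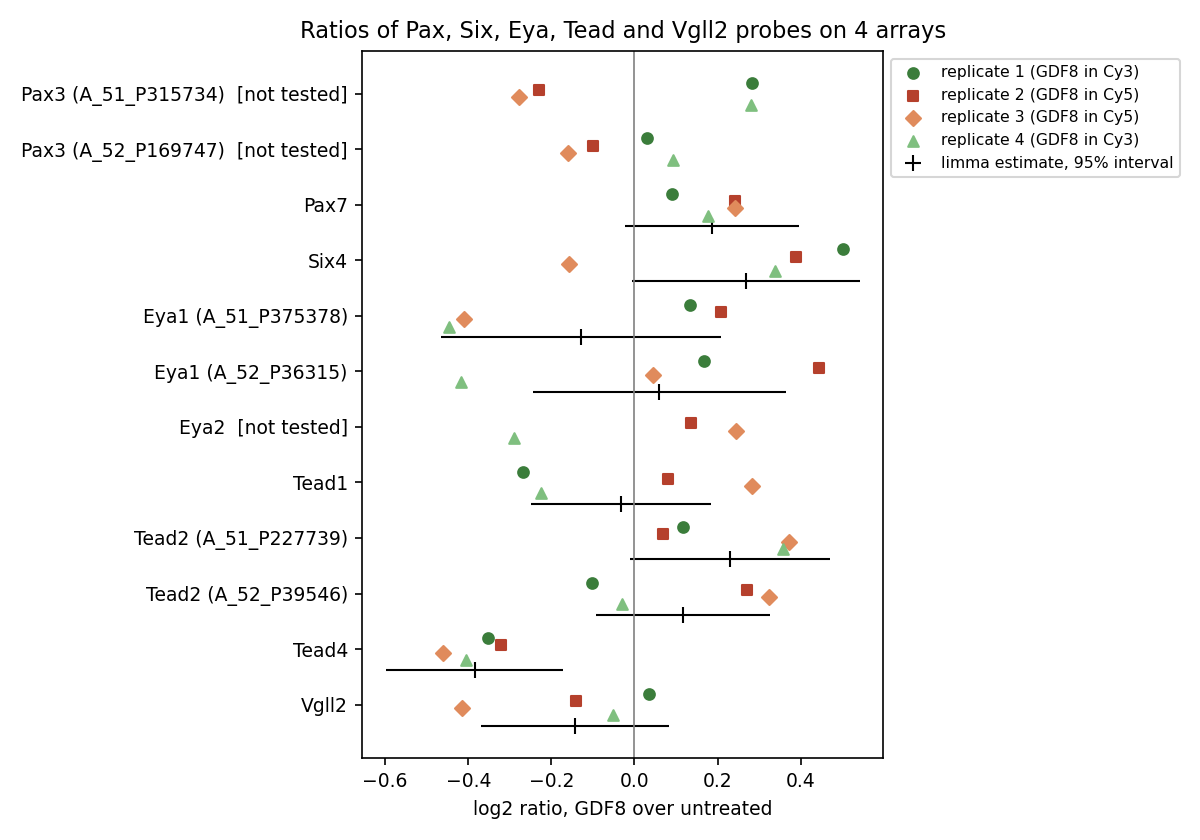
Log2 ratio of GDF8 over untreated (horizontal axis) for the 12 probes, with 1 point per array, coloured and shaped by replicate and dye, and limma's estimate with its 95% interval in black for the 9 tested probes. The 4 Tead4 points lie together between -0.46 and -0.32, while the points of both Eya1 probes spread to both sides of 0.

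Among the precursor factors, Pax7 was measured and Pax3 was not. The Pax7 level in the GDF8 channels of replicates 1 to 4 was 9.65, 9.75, 9.66 and 9.93, and in the untreated channels 9.56, 9.51, 9.42 and 9.75. GDF8 was the higher channel on all 4 arrays, but the 2 groups overlapped, since untreated replicate 4 lay above the GDF8 level of replicates 1 and 3. The ratios were 0.09, 0.24, 0.24 and 0.18, with an estimate of 0.19 ± 0.09 (SE, n = 4; limma adjusted p = 0.486). The 95% interval ran from -0.02 to 0.40, or from 1.02-fold lower to 1.32-fold higher. Net Pax7 signals were 544 to 1274 in the GDF8 channels and 598 to 1052 in the untreated channels.

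Neither of the 2 Pax3 probes was well above background in any of the 8 channels, so neither was tested, and their ratios, which are between signals near background, are given only as a record and not as folds of Pax3. The net signals of the first Pax3 probe (A_51_P315734), which is printed 10 times on each array, were 29.1 to 203 units. Its ratios were 0.28 and 0.28 on the arrays with GDF8 in Cy3 and -0.23 and -0.28 on those with GDF8 in Cy5, so the sign followed the dye. The SD between its 10 spots within an array, a technical spread, was 0.106 to 0.159. The second Pax3 probe (A_52_P169747) followed the same order at smaller size, with 0.03 and 0.09 in Cy3 and -0.10 and -0.16 in Cy5.

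Six4, a MEF3-binding homeodomain protein, was measured by 1 probe. Its GDF8 levels were 11.28, 11.51, 11.59 and 11.45 for replicates 1 to 4, and its untreated levels 10.78, 11.12, 11.75 and 11.12. GDF8 was higher on replicates 1, 2 and 4, and replicate 3 ran the other way, with the highest untreated channel of all 8. The ratios of 0.50, 0.39, -0.16 and 0.34 gave 0.27 ± 0.12 (limma adjusted p = 0.430). Without replicate 3 the estimate was 0.40 and without replicate 2 it was 0.13, and neither passed the threshold. The ratio of 0.50 on replicate 1 was the largest of any tested probe of these genes. None of the 9 probes reached 1.6-fold, the authors' fold threshold, on any array, whereas 16.5% of all tested probes did so on at least 1 array. That share includes probes saturated in some channel, which none of the 9 was.

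Eya1, the Six-family coactivator, was measured by 2 probes whose estimates lay on opposite sides of 0. The brighter probe (A_52_P36315) had ratios of 0.17, 0.44, 0.05 and -0.42 and an estimate of 0.06 ± 0.13 (limma adjusted p = 0.937). The dimmer probe (A_51_P375378) had 0.13, 0.21, -0.41 and -0.45 and an estimate of -0.13 ± 0.14 (limma adjusted p = 0.856). Both were positive on replicates 1 and 2 and negative on replicate 4, and they parted on replicate 3. On the same array the brighter minus the dimmer differed by 0.03, 0.24, 0.45 and 0.03. The dimmer probe was designed on an accession (U61110) that was not in the RefSeq gene list, so its name is that of the array files.

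The levels of the brighter Eya1 probe were 14.31, 15.27, 15.09 and 14.79 with GDF8 and 14.14, 14.82, 15.04 and 15.20 untreated. The spread between arrays was therefore larger than any difference within an array, and replicate 1 was the lowest in both groups. Eya2, the second Eya member, was well above background in 1 of 4 GDF8 and 1 of 4 untreated channels, and its spot on replicate 1 was dropped as an outlier. The counts above background were made before that spot was dropped. On replicates 2 to 4 the Eya2 levels were 6.57 to 6.86, near background. The ratios there were 0.14, 0.24 and -0.29, positive with GDF8 in Cy5 and negative in Cy3. They are given only as a record and not as folds of Eya2, with no test.

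Tead4, the Tead gene known to be switched on by MyoD-type factors during myoblast differentiation, gave the most even ratios of the set. Its GDF8 levels were 12.57, 13.05, 13.18 and 13.10 for replicates 1 to 4, and its untreated levels 12.92, 13.37, 13.64 and 13.51. GDF8 was the lower channel on every array, yet the groups overlapped, because the untreated level of replicate 1 lay below the GDF8 level of the other arrays. No tested probe of the 9 genes had GDF8 and untreated channels that did not overlap, and 5.43% of all tested probes did.

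The Tead4 ratios were -0.35, -0.32, -0.46 and -0.41, with a mean of -0.38 ± 0.06 (SD, n = 4). Limma's estimate was -0.38 ± 0.09 (SE), or 1.31-fold lower, with a 95% interval from 1.13-fold to 1.51-fold lower. Its unadjusted p was 0.0036 and its adjusted p 0.092, so it did not pass the threshold. It ranked 1047 of 26579 probes by p, and its ratio was larger in size than that of 94.1% of tested probes. The mean ratio was -0.38 with GDF8 in Cy3 and -0.39 with GDF8 in Cy5, so the dye made little difference here. An exact sign-change permutation test over the 4 arrays gave a two-sided p of 0.13, the smallest that 4 arrays allow. Under the 18 other settings the ratio lay between -0.42 and -0.35 with the same sign in all 18. The lowest adjusted p was 0.083, in limma without background correction. In limma it was 0.54 with median centring and 0.79 with unpaired single-channel values. The median-centred fit gave every probe of these genes the same SE (0.18), so a probe's own spread did not enter it. With 1 array left out limma's adjusted p ran from 0.15 to 0.48, and the methods' t-test gave 0.99996 after adjustment.

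**Figure D2:**
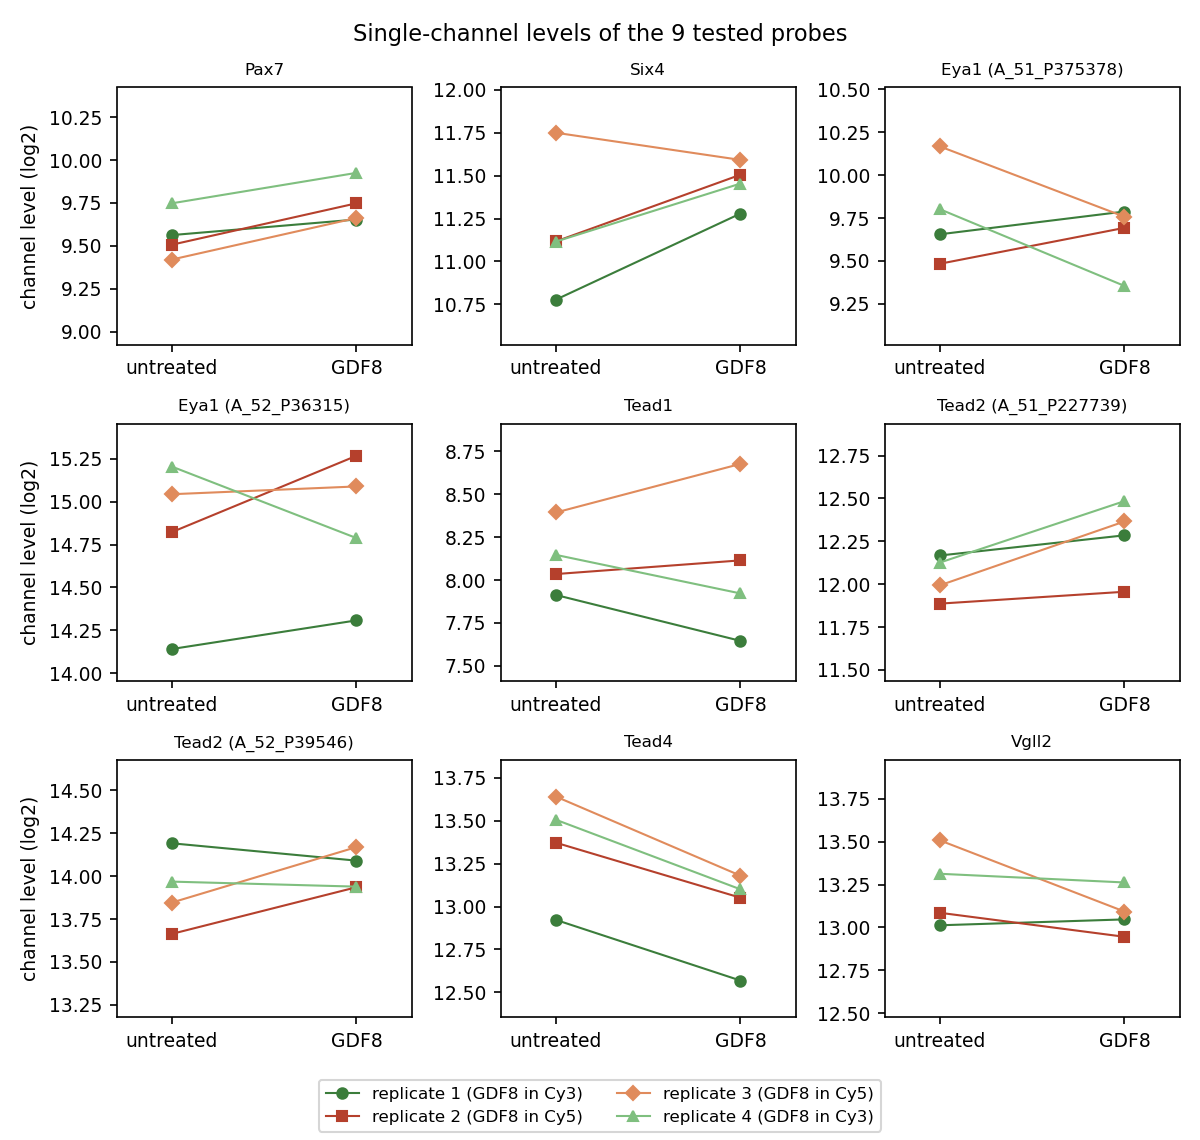
Normalised log2 channel level (vertical axis, a span of the same height in each panel) of untreated and GDF8 RNA for the 9 tested probes, with a line joining the 2 channels of an array. The 4 Tead4 lines slope down side by side from untreated levels of 12.92 to 13.64, the 4 Pax7 lines slope up, and the Eya1 lines cross.

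Tead2, which is best known from early development and from binding YAP, was measured by 2 probes, both on NM_011565. The dimmer one (A_51_P227739) had GDF8 levels of 12.28, 11.96, 12.37 and 12.48 and untreated levels of 12.17, 11.89, 11.99 and 12.13. GDF8 was higher on all 4 arrays, with ratios of 0.12, 0.07, 0.37 and 0.36 and an estimate of 0.23 ± 0.10 (limma adjusted p = 0.445). The brighter one (A_52_P39546) had ratios of -0.10, 0.27, 0.32 and -0.03 and an estimate of 0.12 ± 0.09 (limma adjusted p = 0.766). It was higher on the 2 arrays with GDF8 in Cy5 (mean 0.30) and lower on the 2 with GDF8 in Cy3 (mean -0.07), whereas the dimmer probe gave 0.22 and 0.24. The 2 probes differed on the same array by -0.22, 0.20, -0.05 and -0.39, brighter minus dimmer, and neither estimate passed the threshold.

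Tead1, the founding member of the family in mammals, had 1 probe under its own name, with net signals of only 224 to 371 units. It was well above background in 3 of 4 GDF8 and 4 of 4 untreated channels. Its ratios of -0.27, 0.08, 0.28 and -0.22 followed the dye, negative with GDF8 in Cy3 and positive in Cy5, and the estimate was -0.03 ± 0.09 (limma adjusted p = 0.954). Another 2 probes carry a name, 2610024B07Rik, that RefSeq lists as a synonym of Tead1. One of them (A_51_P473633) was never saturated, with ratios of -0.00084, -0.12, -0.01 and 0.06 and an estimate of -0.02 ± 0.09 (limma adjusted p = 0.976). The other (A_51_P214423) was saturated in 3 of 4 GDF8 and all 4 untreated channels, so its fold is not given.

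Vgll2, the muscle Vestigial-like cofactor, had GDF8 levels of 13.05, 12.95, 13.09 and 13.26 and untreated levels of 13.01, 13.09, 13.51 and 13.31. The ratios were 0.03, -0.14, -0.41 and -0.05, with replicate 3 the lowest, where the untreated channel was the highest of the 8. The estimate was -0.14 ± 0.10 (limma adjusted p = 0.705), with a 95% interval from 1.29-fold lower to 1.06-fold higher. Counting signs over the whole set, 3 of the 9 tested probes (Tead4 lower, Pax7 and the dimmer Tead2 probe higher) had 1 sign on all 4 arrays, against 15.6% of all tested probes. The 15.6% is over saturated probes too, and none of the 9 was saturated. The median estimate of the 9 probes was 0.06, beside 0.0077 over all 17446 tested genes. The sets are unlike, since the first counts each probe of Eya1 and Tead2 and the second takes the brightest tested probe per gene, saturated or not.

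**Figure D3:**
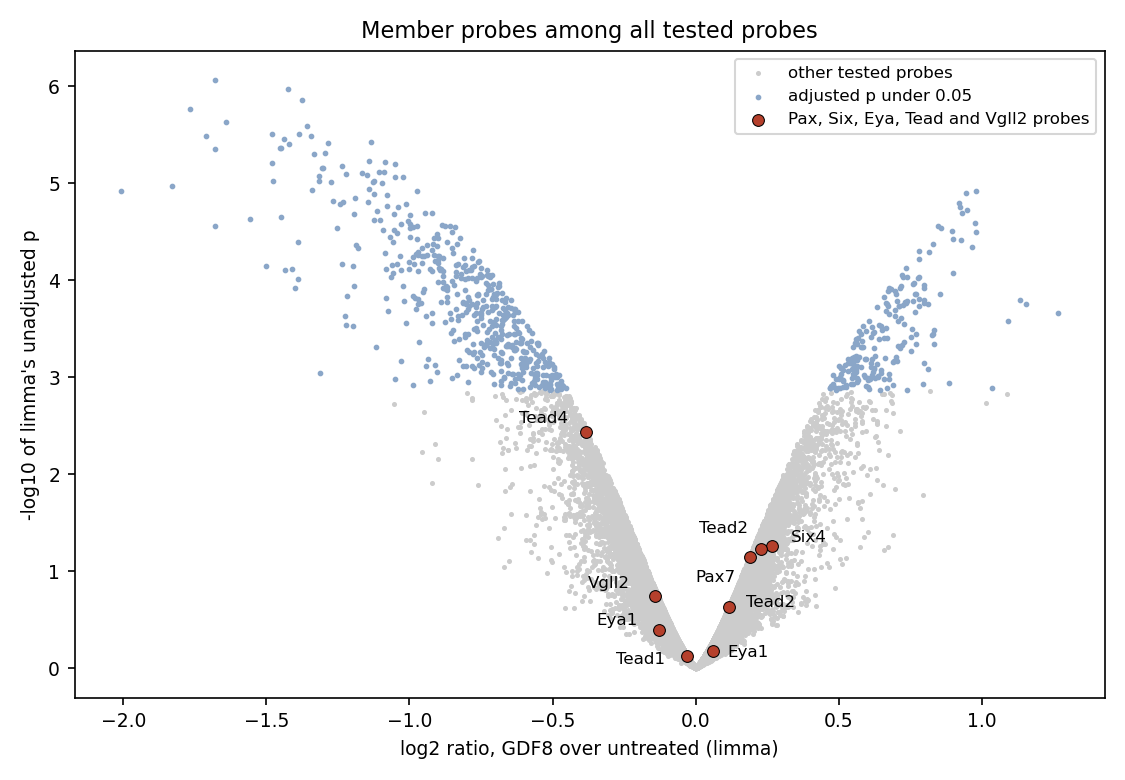
Limma's log2 ratio (horizontal axis) against -log10 of its unadjusted p (vertical axis) for all 26579 tested probes, with the 724 probes past the adjusted threshold in blue and the 9 probes of these genes in red. Tead4 lies just under the called probes on the lower side, at -0.38, and the other 8 lie within the body of the plot.

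The 3 Tead genes were compared on the same arrays. Tead4 minus Tead2 (brighter probe) was -0.25, -0.59, -0.78 and -0.38, a mean of -0.50 ± 0.12 (SE, n = 4; exact two-sided permutation p = 0.13, adjusted 0.13) with a 95% interval of -0.88 to -0.13. Tead4 minus Tead1 was -0.09, -0.40, -0.74 and -0.18, a mean of -0.35 ± 0.15 (exact permutation p = 0.13, adjusted 0.13) with an interval of -0.82 to 0.11. Tead1 minus Tead2 was -0.17, -0.19, -0.04 and -0.20, a mean of -0.15 ± 0.04 (exact permutation p = 0.13, adjusted 0.13) with an interval of -0.27 to -0.03. With these probes the first-named gene was the lower on all 4 arrays in each of the 3 comparisons, and 0.13 is the smallest p that 4 arrays can give. Tead1 was read here at its dim probe, whose ratios followed the dye, as those of the brighter Tead2 probe did. With the dimmer Tead2 probe, an alternative chosen after seeing the data, the difference was -0.61 for Tead4 (lower on 4 of 4 arrays) and -0.26 for Tead1 (lower on 3 of 4). The unsaturated Tead1 probe under the synonym (A_51_P473633) did not keep the order of Tead1 and Tead2. Its ratios lay above the brighter Tead2 probe on replicates 1 and 4 (-0.00084 and 0.06 against -0.10 and -0.03). On replicates 2 and 3 they lay below it (-0.12 and -0.01 against 0.27 and 0.32). Pax3 against Pax7 and Eya1 against Eya2 could not be compared, since Pax3 and Eya2 were not above background in a whole group.

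The 20 other Pax, Six-family, Eya, Dach, Tead and Vgll genes on the array included 11 that had a tested probe. Of the 11, 1 gene, Pax6,, rose and none fell, with a list median of 0.06; over all genes, 153 of 17446 rose and 404 fell, 3.19% in all. Pax6, the eye and forebrain paired-box factor, had ratios of 0.78, 0.76, 0.46 and 0.59 at its probe A_51_P489935 and rose by 0.65 ± 0.10 (limma adjusted p = 0.022). The Pax6 call held in 11 of 18 alternatives and was lost without replicate 1, 2 or 4 (limma adjusted p = 0.060, 0.134 and 0.055). Its other 2 probes, both on NM_013627, were not above background in a whole group, with 0 of 8 channels for one and 3 GDF8 and 2 untreated channels for the other. Pax1, Pax4, Pax8, Six2 and Six6 were not above background in any channel.

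Eya4, another Six-family coactivator, had 3 tested probes with estimates of 0.30, 0.25 and 0.40 and limma adjusted p-values of 0.303, 0.282 and 0.115. The last 2 Eya4 probes were higher with GDF8 on all 4 arrays, at 0.21 to 0.28 and 0.24 to 0.55, and the first was negative on replicate 4. That first probe was saturated in 1 GDF8 channel. Its ratios varied with the dye, at 0.89 and 0.48 with GDF8 in Cy5 and 0.02 and -0.20 in Cy3. Pax5, the B cell paired-box factor, had the next smallest p of the list, at 0.19 ± 0.10 (limma adjusted p = 0.573).

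A list of YAP (Yap1), TAZ (Wwtr1) and the Hippo kinases and adaptors that control them was tested for 20 of 20 genes. None passed the threshold in either direction. Yap1 was at -0.02 ± 0.10 (limma adjusted p = 0.971). The Wwtr1 probe was saturated in 3 of 4 GDF8 and all 4 untreated channels, so its fold is not given. The list median was 0.03, with 6 of the 20 probes saturated in some channel. By the brightest probe free of saturation (an alternative chosen after seeing the data, also used for the lists that follow), 19 genes were tested with 0 called, 12 above 0 and a median of 0.077. The smallest p of that set was that of Taok1, a kinase upstream of the Hippo kinases, at -0.34 ± 0.09 (limma adjusted p = 0.13), a gene singled out after its values were seen. Ptpn14, a phosphatase that binds YAP, was at 0.38 ± 0.11 (limma adjusted p = 0.191), positive on 4 of 4 arrays. Ajuba, a LIM protein that binds the LATS kinases, was at 0.38 ± 0.12 (limma adjusted p = 0.220), with 1 array far above the rest. Amot, the YAP-binding scaffold angiomotin, was at -0.20 ± 0.09 (limma adjusted p = 0.441), and its ratios of -0.65 and -0.77 in Cy3 and 0.29 and 0.32 in Cy5 turned with the dye.

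Known YAP and Tead target genes were tested for 22 of 22 genes with 0 called and a median of 0.09, but in 10 of the 22 the probe was saturated in some channel. A ratio of a saturated probe is largely set by the normalisation: Ccdc80, saturated in all 8 channels, read 0.23, -0.31, -0.26 and 0.81, and Taok1 of the Hippo list and Acta2, also saturated in all 8, gave nearly the same values. All 10 saturated probes of the list had estimates above 0, so no count of signs is given for the 22. Among unsaturated probes 15 genes were tested, with 0 called, 12 above 0 and a median of 0.14, beside 8194 of 15102 above 0 and a median of 0.014 over all genes. The smallest p-values belonged to Foxf2, a forkhead factor, at 0.36 ± 0.10 (limma adjusted p = 0.152), to Ptpn14, and to Nt5e, the ectonucleotidase CD73, at 0.33 ± 0.11 (limma adjusted p = 0.276). Foxf2 ratios were 0.28, 0.41, 0.21 and 0.54, and Nt5e ratios 0.34, 0.69, 0.20 and 0.10, all on the side of GDF8.

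Satellite cell genes were tested for 18 of 20, of which 1 rose and none fell, with a median of 0.07. In 10 of the 18 the probe was saturated in some channel. The one that rose was Sox8, an HMG-box factor of satellite cells, with ratios of 0.40, 0.38, 0.64 and 0.63 and an estimate of 0.51 ± 0.10 (limma adjusted p = 0.048). Heyl, a Notch target, was at 0.42 ± 0.09 (limma adjusted p = 0.082) and Sdc3, a heparan sulphate proteoglycan of satellite cells, at 0.32 ± 0.09 (limma adjusted p = 0.178), each positive on 4 of 4 arrays. Among probes never saturated, the list held 12 genes with 1 higher, 9 above 0 and a median of 0.18. Below 0 were Vcam1 (-0.18), Sdc4 (-0.18) and Hey1 (-0.11). The Sox8 call held in 3 of 18 alternatives and was lost with any 1 array left out, at limma adjusted p-values of 0.066, 0.135, 0.255 and 0.165 without replicates 1 to 4.

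Genes that Pax3 and Pax7 are known to activate were tested for 9 of 9, with 0 called and a median of -0.01. Itm2a, a membrane protein downstream of Pax3, had ratios of -0.34, -0.35, -0.56 and -1.45 and an estimate of -0.68 ± 0.17 (limma adjusted p = 0.13). Itm2a passed the threshold in 2 of 18 alternatives, without replicate 1 (-0.95, adjusted p = 0.017) and with median centring in place of loess (adjusted p = 0.011). As for Tead4, a probe's own spread did not enter the median-centred fit. Fgfr4, a growth factor receptor of myoblasts, was at 0.28 ± 0.09 (limma adjusted p = 0.252) and positive on 4 of 4 arrays. Spry1, the FGF pathway inhibitor of quiescent satellite cells, was at -0.14 ± 0.10 (limma adjusted p = 0.751), with a sign that turned with the dye.

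Muscle genes with a known MCAT element were tested for 7 of 7, and 2 fell. Mef2c, a MADS-box factor of muscle differentiation, had ratios of -1.46, -0.84, -0.44 and -1.08 and an estimate of -0.95 ± 0.11 (limma adjusted p = 0.012), 1.94-fold lower. Ckm, muscle creatine kinase, had ratios of -1.10, -1.41, -0.30 and -0.89 and an estimate of -0.93 ± 0.17 (limma adjusted p = 0.044), 1.90-fold lower. The Mef2c call held in 16 of 18 alternatives and with any 1 array left out, while the Ckm call held in 9 of 18 and was lost without replicate 1, 2 or 4 (limma adjusted p = 0.110, 0.090 and 0.106). The list median was -0.005, and 5 of its 7 probes were saturated in some channel, including Acta2, smooth muscle actin, which was saturated in all 8. At the 4 genes with a probe never saturated the median was -0.70, with 2 lower and 0 higher.

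**Figure D4:**
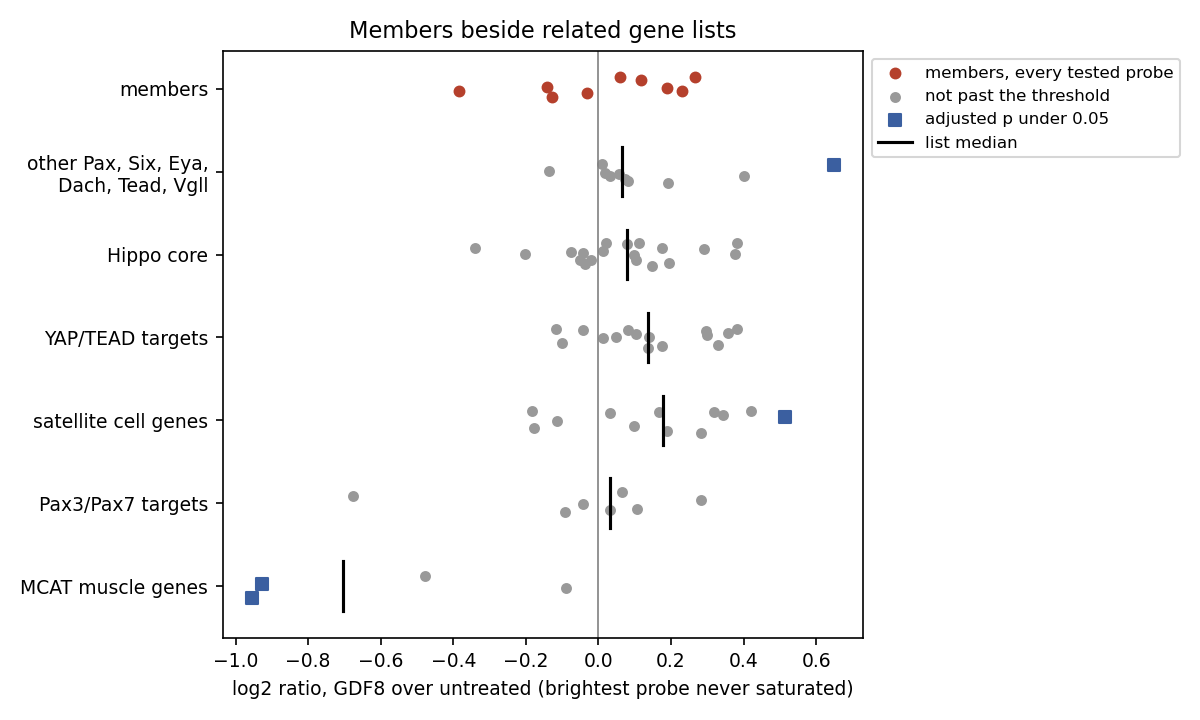
Log2 ratio of GDF8 over untreated (horizontal axis) for the 9 tested probes of the 9 genes and for the genes of 6 related lists, each by its brightest probe never saturated; points are spread vertically only to separate them, blue squares passed an adjusted p of 0.05 and black bars are list medians. Mef2c and Ckm are the 2 squares at the left and Pax6 and Sox8 those at the right, and the 9 probes lie between -0.38 and 0.27.

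Skeletal muscle markers were all detected: all 8 (Des, Myod1, Myog, Myh3, Ckm, Actn2, Cdh15 and Tnnt1) had a tested probe, and 6 of the probes were saturated in some channel. Detection alone does not identify the cell type here, since the fibroblast markers were tested for 6 of 6 too. Actn2, the sarcomeric alpha-actinin, fell by 1.39 on the log2 scale (SE 0.15; limma adjusted p = 0.010), 2.62-fold lower, a call that held in 18 of 18 alternatives, and Ckm fell as given above; the other 6 were not called. None of the tested markers of fibroblasts (6 of 6), adipocytes (2 of 5), endothelium or blood (4 of 7) or neural cells (4 of 5) passed the threshold. Within each of these lists the genes lay on both sides of 0. The neural genes Tubb3 and Elavl3 were at 0.56 and -0.43 (limma adjusted p = 0.067 and 0.089), and Tubb3 passed in 2 of 18 alternatives. Of the endothelial and blood genes, Hba-a1 was at -0.42, Tek at 0.35 and Kdr at 0.15. Of the fibroblast genes, Pi16 was at 0.23, Pdgfra at -0.18 and Col15a1 at 0.16, and of the adipocyte genes, Cebpa was at 0.14 and Fabp4 at -0.06. Adipoq, Plin1 and Cidec of adipocytes were not above background in a whole group. The part of differentiation state in the Tead4 ratio was not tested.

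By the Pearson correlation over the 8 channel values, 3 genes each were the most like Tead4 and Six4 among 13880 named genes. The 8 values share arrays, dyes and cultures, so these correlations are descriptions. For Tead4 they were Haus4 (r = 0.986), Washc1 (r = 0.977) and Synrg (r = 0.963), with ratios of -0.12, -0.11 and -0.23. For Six4 they were Prr11 (r = 0.973), Zfp786 (r = 0.965) and Calcb (r = 0.948), with ratios of 0.40, 0.14 and 0.36. None of the 6 passed the threshold, and Haus4 and Washc1 were saturated in 2 GDF8 and 2 untreated channels each.

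**Figure D5:**
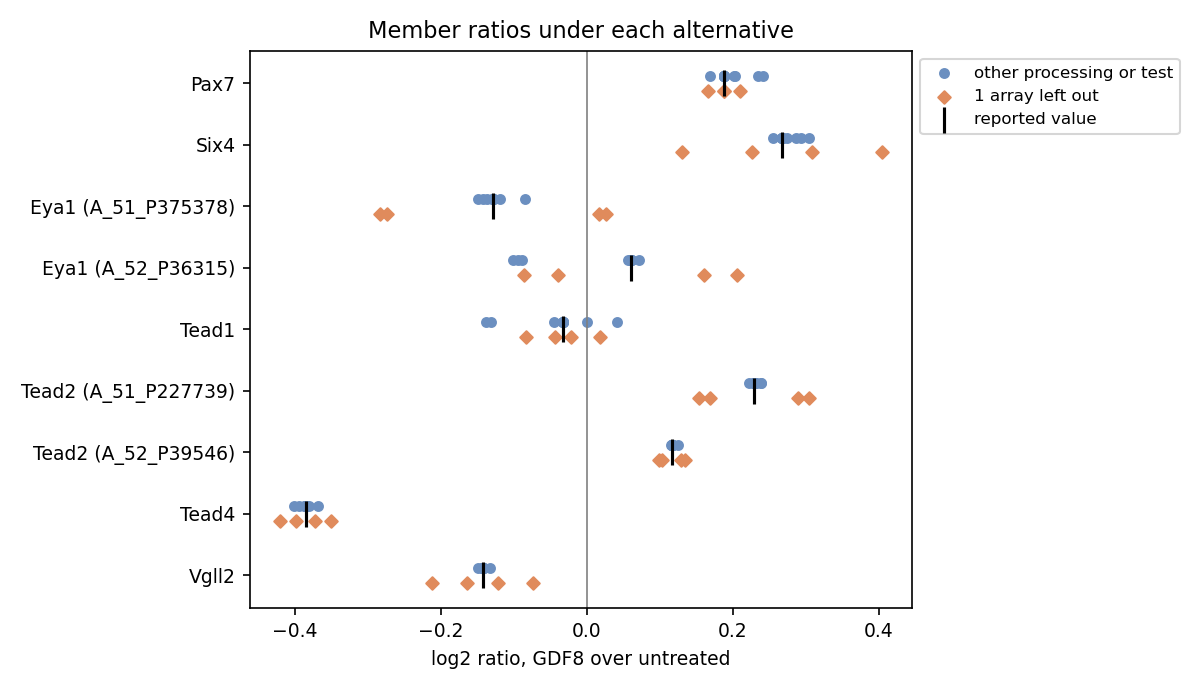
Estimated log2 ratio of GDF8 over untreated (horizontal axis) of each tested probe under the reported setting (black bar), under other processing or tests (blue) and with 1 array left out (orange). All Tead4 estimates lie between -0.42 and -0.35, those of Pax7, Six4, both Tead2 probes and Vgll2 keep their side of 0, and those of Eya1 and Tead1 cross it.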

How the data were processed

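RNA of GDF8-treated and untreated C2C12 cultures was measured on 4 arrays of design 014868, all on 1 slide, so slide could not be fitted as a batch. The deposited scanner files give spot intensity (mean and local background) per channel and a log10 ratio, written by Agilent Feature Extraction 9.1.1.1 per the file headers. Other deposited columns flag saturated, outlying and well-above-background spots. The value table deposited by the authors is in log2: at a tolerance of 0.001 it equalled GDF8 over untreated from Agilent's processed signals in 100% of 40929 single-spot probes, with column medians of 0.14, -0.09, -0.11 and 0.09, so it was not centred. Per the series' design text, GeneSpring GX 12, present and marginal flags, an unpaired test and a fold over 1.6 were used.

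In limma 3.58.1 under R 4.3.3, signals were corrected by normexp (offset 50) and normalised by loess within each array, with control spots at weight 0; outlier spots were dropped and spots of 1 probe averaged. Channel levels came from Aquantile. Each ratio lies within an array, which is the block. The fit had a GDF8 and a dye term, 2 residual degrees of freedom and a prior of 5.05. Of 43379 non-control spots, 0.745% to 12.1% were saturated and 63.3% to 78.8% well above background, per channel; ratios correlated between arrays at 0.45 and 0.44 within a dye orientation and at -0.18 to 0.18 across orientations. The small number of arrays limits precision. Tested on data simulated for this comparison (26579 probes), the fit called 55 of 67 probes changed 1.5-fold, 66 of 67 changed 2-fold, 66 of 66 changed 3-fold and 13 of 26379 unchanged.

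Genes were named by accession, symbol or synonym through a RefSeq gene list; members kept the files' names. No array coordinates are given, since the build is not given in the sources used here. The 9 genes, the lists and the tests were chosen with earlier results of these data known. Named genes were the members, up to 3 per other list with the smallest p at the brightest tested probe, and the 3 most like each of the 2 members with the smallest p. Some further list genes, among them Yap1, Wwtr1, Vcam1, Sdc4 and Hey1, were named after their values were seen. Alternatives varied background, scaling, filters, dye term, pairing, probe, test, authors' table and arrays.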

Additional observations from a re-analysis of the deposited data

Results flagged for a closer look

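Of 39 probes examined on their 4 ratios, 1 had an array standing apart by Dixon's criterion, which chance meets in about 1 in 20. For the Hippo adaptor Ajuba the log2 ratio of replicate 3 was 0.84, against 0.19, 0.25 and 0.22 on replicates 1, 2 and 4. No probe of the Pax, Six-family, Eya, Tead or Vgll2 genes in the report was among those with an array standing apart. The cause was not tested.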

How the results depend on the processing

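None of the 9 probes was called under any of the 18 alternatives. The alternatives with a 1.6-fold rule could not call them, since none reached that fold on any array. Pax6 (1.57-fold) and Sox8 (1.43-fold) were also under it, so those alternatives could not hold their calls. A call held by the t-test with the 1.6-fold rule is at its unadjusted p. Pax7, Six4, both Tead2 probes, Tead4 and Vgll2 kept their sign in all that could be computed; the brighter Eya1 probe kept it in 13 of 18, the dimmer in 15 of 17 and Tead1 in 13 of 16. Over all tested probes, the 205 higher and 519 lower calls moved by over 1.5 times as follows, and the cause was not tested. The higher calls were 111 with Agilent's processed signals, 88 without the dye term, 84 with a 1.6-fold threshold added and 87 by the methods' t-test at an unadjusted p with 1.6-fold. Unpaired single-channel values gave 72 higher and 319 lower, and the methods' t-test after Benjamini-Hochberg 25 and 76. With 1 array left out, 30 to 155 were higher and 185 to 443 lower; replicates 2 and 4 moved the counts most (30 and 185 without replicate 2, 60 and 211 without replicate 4). The reported fit is paired by replicate, since both RNAs of a replicate share an array, and the unpaired values above are its alternative. Saturation limits the bright muscle genes, and background limits Pax3, Eya2 and the Tead1 probe under its own name.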
